A study of Mus musculus with 6 samples.

Results

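RIKEN-named genes are mouse genes that still carry the clone name of a full-length cDNA, a name that ends in Rik and says nothing of function. The RIKEN group in Japan sequenced such cDNAs from many tissues, and a clone name stays in use until a gene is given a name for what it does. The first characters of the name give the library plate, so a name can tell in which tissue the transcript was first cloned. Many of these genes have since been tied to cilia, autophagy, actin or mitochondria, and others have no known role.

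The protein-coding genes of this kind were taken from the count table of sorted mouse lung tumour cells. They were chosen by their level: a gene was kept when its raw CPM (counts per 1000000 counts of the library) was at least 1 in 3 or more of the 6 libraries. This left 177 of 491 RIKEN-named protein-coding genes, among 55487 genes in all. Of the 314 others, 133 had no counts in any library. The genotype difference was not used. Of the 177, 153 reached 1 raw CPM in all 6 libraries, 2 did so in the sgNeo libraries only, 4 in the sgLkb1 libraries only, and 18 in another mix. The 6 genes that entered through 1 genotype had to differ between the genotypes: 1700019D03Rik and 9530003J23Rik entered through sgNeo, and 1700001O22Rik, 1700016C15Rik, 2200002J24Rik and 2210407C18Rik through sgLkb1. Just inside the rule lay E230025N22Rik and 1110017D15Rik, where the lowest of the 3 highest libraries was at 1.01 and 1.02 raw CPM, and just outside it 1700029I15Rik and 3110009E18Rik at 0.962 and 0.946. The members have 176 different names, because 4933434E20Rik stands for 2 gene records.

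The cells, GFP-positive and CD45-negative, were collected by sorting 11 weeks after tumours were started. All came from KP tumours, a mouse model of lung adenocarcinoma. They carried either sgNeo, labelled Lkb1 wild type, or sgLkb1, labelled Lkb1 mutant, with 3 libraries per genotype; Lkb1 (gene symbol Stk11) is a kinase upstream of AMPK and the SIK family. The sources used here do not give strain, age, sex, Cre driver or number of animals, and the labels do not say that replicates came from separate mice, so p-values measure the spread between these libraries, which may be technical.

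Library totals ran from 26007503 to 28986526 counts in sgNeo and from 29613678 to 41729299 in sgLkb1. Levels below are CPM relative to library sizes scaled by the trimmed mean of M-values (TMM), and log2 fold changes are sgLkb1 minus sgNeo. Stk11 was at 68.3, 33.4 and 82.7 CPM in sgNeo replicates 1, 2 and 3 and at 23.5, 25.6 and 25.3 CPM in sgLkb1, with no overlap (log2 fold change -1.31, SE 0.30, edgeR adjusted p = 0.023). That call was lost on leaving out a library in 5 of 6 cases (adjusted p up to 0.076). The summed alveolar type 2 markers lay at 115000 to 136000 CPM in sgNeo and 10900 to 18100 in sgLkb1, with 6 of 6 lower. The summed fibroblast markers ran from 37.0 to 116 and from 178 to 1390 CPM (4 of 7 higher), the endothelial from 26.7 to 43.6 and from 66.4 to 115 (3 of 6 higher), and the mesothelial from 172 to 428 and from 828 to 1420 (2 of 5 higher). In sgLkb1 replicates 1, 2 and 3 the fibroblast sum was 178, 258 and 1390 CPM and the endothelial sum 66.4, 66.9 and 115 CPM. The upper end of both thus rests on sgLkb1 replicate 3. Msln made up most of the mesothelial sum. Msln and Aldh1a2, the 2 called higher, were highest in sgLkb1 replicate 2, at 1275 and 138 CPM. Upk3b, Lrrn4 and Wt1 were highest in sgLkb1 replicate 3, at 16.5, 13.1 and 7.46 CPM against at most 1.73 elsewhere. The leukocyte sum was 25600 to 37900 against 1880 to 3820 CPM with 2 of 7 lower, and most of it was Lyz2, which alveolar type 2 cells also make. Ciliated cell markers summed to 55.2 to 59.5 and 49.4 to 84.7 CPM with 0 of 8 called, club cell markers to 241 to 397 and 65.4 to 547 with 0 of 2 called, and epithelial markers to 3590 to 4110 and 4950 to 5700 with 1 of 4 higher and 1 lower. Tppp3 made up most of the ciliated sum, with means of 45.4 CPM in sgNeo and 46.0 CPM in sgLkb1. No marker was at 0 in all 6 libraries. The ciliated and club sums overlapped between the genotypes, and the sums of the other lists did not. The part of these cell types in the results was not tested. In such bulk libraries fewer cells of a type and less RNA per cell cannot be told apart.

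4 stretches of DNA before the start sites of members that differed between the genotypes are shown first, because the genes behind them return throughout. They are RefSeq sequences of GRCm38.p6, the 250 bases before the start on the gene's own strand. Capitals mark matches, on either strand, to the CRE (TGACGTCA) or AP-1 (TGANTCA), or to the letters that name the CCAAT box, or to the GC box (GGGCGG) or TATA box (TATAAA) letters, none of which overlapped another here. 2610028H24Rik and the Elapor pair 5330417C22Rik and 9330182L06Rik were lower in sgLkb1, and 2200002J24Rik was higher.
2610028H24Rik, chr10:76448831-76449080, plus strand: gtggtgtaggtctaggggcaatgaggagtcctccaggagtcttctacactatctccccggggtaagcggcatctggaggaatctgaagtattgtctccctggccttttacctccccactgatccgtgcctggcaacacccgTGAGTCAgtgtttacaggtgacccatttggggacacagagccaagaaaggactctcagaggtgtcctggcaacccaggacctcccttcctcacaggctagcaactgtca
5330417C22Rik, chr3:108536542-108536791, minus strand: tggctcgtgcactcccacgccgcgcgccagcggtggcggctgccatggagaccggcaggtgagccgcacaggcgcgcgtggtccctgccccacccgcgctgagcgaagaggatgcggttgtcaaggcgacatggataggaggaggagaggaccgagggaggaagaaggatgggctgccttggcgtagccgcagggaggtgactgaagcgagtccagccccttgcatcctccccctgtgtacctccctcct
9330182L06Rik, chr5:9265868-9266117, plus strand: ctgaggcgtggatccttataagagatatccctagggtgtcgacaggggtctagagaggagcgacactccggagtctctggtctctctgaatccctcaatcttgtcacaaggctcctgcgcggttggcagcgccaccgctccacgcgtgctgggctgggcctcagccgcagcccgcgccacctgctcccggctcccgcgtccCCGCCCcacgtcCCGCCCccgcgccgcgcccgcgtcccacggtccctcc
2200002J24Rik, chr7:30698676-30698925, plus strand: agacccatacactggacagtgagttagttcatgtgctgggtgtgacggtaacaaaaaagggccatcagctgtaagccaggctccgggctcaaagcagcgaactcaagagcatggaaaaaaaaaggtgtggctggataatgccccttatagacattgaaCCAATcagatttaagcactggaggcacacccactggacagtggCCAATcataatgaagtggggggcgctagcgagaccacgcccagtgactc

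The windows of the Elapor pair held 21 and 26 CG pairs, and those of 2610028H24Rik and 2200002J24Rik held 4 and 6. The window of 2610028H24Rik held 1 AP-1 match, the window of 9330182L06Rik 2 GC boxes, and that of 2200002J24Rik 2 CCAAT boxes; the window of 5330417C22Rik held no match. A RefSeq window was found for 145 members. The AP-1 letters were in 4.83% of these and 6.87% of all 27025 windows, the CCAAT box in 38.6% and 34.5%, the GC box in 50.3% and 32.9%, the TATA box in 6.21% and 13%, and the CRE in 4.14% and 1.62%. Among 9851 other protein-coding genes past the same level rule these shares were 4.62%, 36.5%, 59.9%, 6.56% and 2.75%. For members the window nearest the GENCODE start was taken, and in the other sets the first listed for each gene. The shares therefore compare windows chosen by unlike rules. A match in such a window is a run of letters, and was not tested as a binding site.

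Most RIKEN-named genes did not pass the test between the genotypes, and their fold changes were small. Of the 177, all of which were tested, 5 rose (2.82%) and 12 fell (6.78%) in sgLkb1 by edgeR's quasi-likelihood test, at an adjusted p under 0.05 over all 15978 genes tested, which is 9.6% together. Of these 17, 4 (2 higher and 2 lower) had entered through 1 genotype, so their calls are partly set by the level rule; among the other 171 members 3 rose and 10 fell (7.6%). Over all genes tested 15.7% passed, 7.05% higher and 8.6% lower, and among 12364 other protein-coding genes past the level rule 18.1% passed, 8.07% higher and 10% lower. The median log2 fold change was -0.02, with quartiles of -0.29 and 0.25, against a median of 0.02 over all genes tested. The median size of the log2 fold change was 0.28 for members, 0.38 for the other protein-coding genes and 0.39 for 130 genes named Gm with a number, another kind of placeholder name, of which 9 passed (6.92%; 3.08% higher and 3.85% lower). In 136 members the log2 fold change was smaller than 0.5 in size. When sgNeo replicate 2 was left out 2 members rose and 5 fell, and over all genes tested 2.67% rose and 4.07% fell. With sgLkb1 replicate 2 absent 2 rose and 9 fell (4.23% and 5.0% over all genes), and with sgNeo replicate 1 absent 4 and 8 (3.23% and 4.63%).

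**Figure D1:**
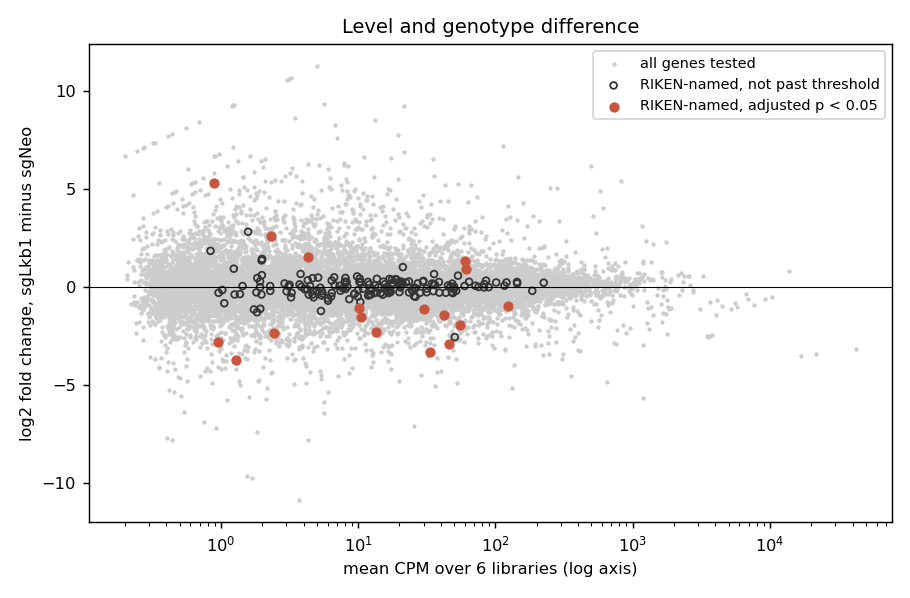
Each point is a gene, with the mean CPM over the 6 libraries on a log axis across and the log2 fold change (sgLkb1 minus sgNeo) upwards. Grey points are all 15978 genes tested, open circles the RIKEN-named genes that did not pass and filled circles the 17 that did; most open circles lie close to 0.

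**Figure D2:**
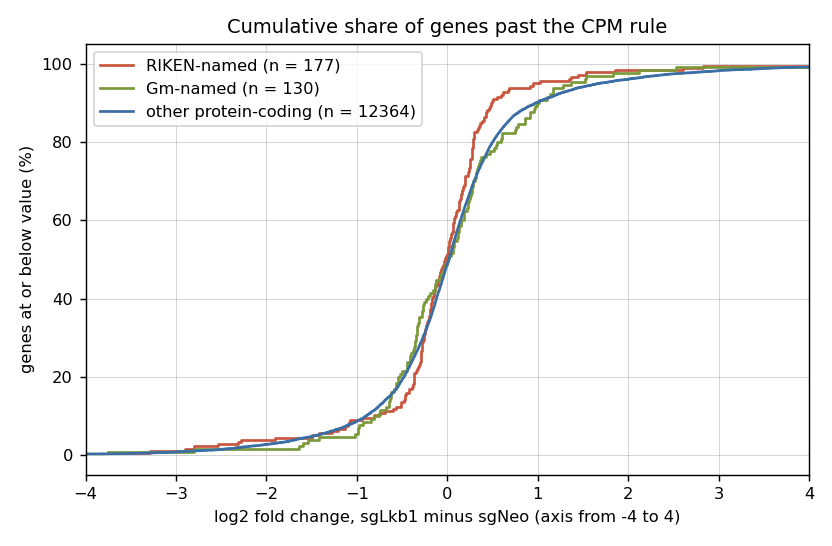
The lines give the cumulative percentage of genes at or below each log2 fold change (sgLkb1 minus sgNeo) for 177 RIKEN-named, 130 Gm-named and 12364 other protein-coding genes past the same level rule; the axis stops at -4 and 4. The RIKEN-named line is the steepest around 0, where the median size of change was 0.28 against 0.39 and 0.38.

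Members were less abundant than other protein-coding genes past the level rule, with a median of 13.2 against 26.2 CPM, and had shorter exons, with a median of 3305 against 4477 bases summed over the exons. Per kilobase of exon the medians were 3.23 and 5.41 RPKM. The share that passed was therefore also read by level. Below 3 CPM 5 of 28 members passed (17.9%, against 14.3% of other protein-coding genes), but 4 of those 5 had entered through 1 genotype. Among genes under 3 CPM that had not, 1 of 22 members and 44 of 965 other protein-coding genes passed (4.55% and 4.56%). At 30 CPM or more 8 of 43 members passed (18.6% against 18.9%). Between 3 and 10 CPM 1 of 46 passed (2.17% against 19.4%), and between 10 and 30 CPM 3 of 60 (5.0% against 17.2%). The median standard errors of the log2 fold change in those middle levels were 0.33 and 0.212 for members and 0.354 and 0.225 for the others. These shares are counts and no test was made of their difference.

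**Figure D3:**
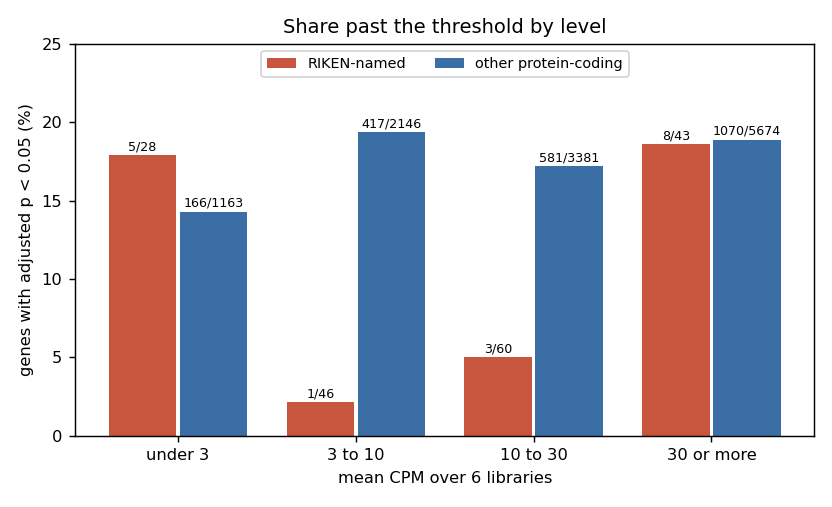
Bars give the percentage of genes with an edgeR adjusted p under 0.05 in 4 classes of mean CPM, for RIKEN-named and other protein-coding genes, with called and total genes printed above. Members passed in 1 of 46 and 3 of 60 in the middle classes and in 5 of 28 and 8 of 43 in the outer ones, and 4 of the 5 lowest had entered the set through 1 genotype.

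The firmest difference among the members was the fall of 1810010H24Rik, a gene with no descriptive name in the reference tables, at chr11:107025681-107030443 (GRCm38, plus strand). It was at 68.1, 55.0 and 60.0 CPM in sgNeo replicates 1, 2 and 3 and at 6.73, 6.17 and 5.85 CPM in sgLkb1 replicates 1, 2 and 3. The 3 sgLkb1 libraries lay within a narrow band far below every sgNeo library. The log2 fold change was -3.29 (SE 0.17, edgeR adjusted p = 0.00017), between -3.36 and -3.21 with any library left out. Its flanking genes Kpna2 and Bptf did not pass (log2 fold changes 0.38 and 0.36).

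2610028H24Rik, also without a descriptive name, fell almost as far. Its levels were 84.6, 69.0 and 89.5 CPM in sgNeo and 7.56, 9.53 and 15.6 CPM in sgLkb1, with no overlap (log2 fold change -2.90, SE 0.28, edgeR adjusted p = 0.00083; -3.26 to -2.67 with a library left out). It lies on chromosome 10 from 76449081 to 76461110 (plus strand), and its exons overlap those of Ybey on the other strand. The flanking gene Pcnt, which encodes the centrosome protein pericentrin, 6294 bases before it, also fell, from 79.6 to 25.5 CPM (log2 fold change -1.64, edgeR adjusted p = 0.00067), while Mcm3ap on the other side was at 16 and 16.5 CPM.

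Both genes of the Elapor family fell. Elapor1 and Elapor2 are the RefSeq names of 5330417C22Rik and 9330182L06Rik, transmembrane proteins named as endosome and lysosome associated regulators of apoptosis and autophagy. 5330417C22Rik (Elapor1, chr3:108455694-108536536, minus strand) was at 77.9, 58.2 and 47.4 CPM in sgNeo and 26.3, 23.2 and 19.3 CPM in sgLkb1. 9330182L06Rik (Elapor2, chr5:9266118-9481825, plus strand) was at 21.8, 23.4 and 22.1 CPM in sgNeo and 5.92, 4.49 and 3.41 CPM in sgLkb1. In each gene every sgLkb1 library was below every sgNeo library, and for Elapor1 the sgNeo libraries were the more scattered. The log2 fold change of Elapor1 was -1.41 (SE 0.22, edgeR adjusted p = 0.0049) and that of Elapor2 -2.28 (SE 0.25, edgeR adjusted p = 0.0012); both calls stood with any library left out (highest edgeR adjusted p 0.024 and 0.010). Per kilobase of exon Elapor1 was the more abundant, with mean levels of 9.70 and 3.64 RPKM in sgNeo and sgLkb1 against 2.84 and 0.582 RPKM for Elapor2.

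Of the 4 other members placed in the endosome, lysosome and secretory pathway list, 0 passed. 2610002M06Rik (Chmp1b2, an ESCRT-III subunit that shapes membranes) was at 35.2 ± 7.13 and 42.4 ± 11.1 CPM (SD, n = 3, sgNeo then sgLkb1). 4932438A13Rik (Tweek, of a family of bridge-like lipid transfer proteins) was at 55.0 ± 9.54 and 48.6 ± 16.7 CPM. The SREBP pathway regulator 2410131K14Rik (Spring1) was at 18.4 ± 2.50 and 15 ± 2.62 CPM. 1810037I17Rik (Aln, a micropeptide that inhibits the calcium pump SERCA) was at 58.1 ± 2.96 and 70.5 ± 11.7 CPM, with every sgLkb1 library above every sgNeo library (edgeR adjusted p = 0.29). It passed when libraries were scaled by total counts alone (log2 fold change 0.51, edgeR adjusted p = 0.046), a scaling that moves the median log2 fold change of all genes from 0.02 to 0.26.

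Of the 4 members placed in the actin and kinase anchoring list, 2 fell and 2 did not pass, where 8.6% of all genes tested fell. Most members of the role lists were placed with results known, so no excess can be read from this count. C530008M17Rik (Cracd, which counters the capping protein that stops actin filament growth) was at 3.69, 4.05 and 4.38 CPM in sgNeo and 1.13, 0.184 and 1.12 CPM in sgLkb1, lowest in sgLkb1 replicate 2 and without overlap. The log2 fold change was -2.31 (SE 0.64, edgeR adjusted p = 0.043), and the call was lost on leaving out any library other than sgLkb1 replicate 2, that is in 5 of 6 cases (edgeR adjusted p up to 0.12, log2 fold changes -2.61 to -1.81). Its exons overlap those of A730089K16Rik on the other strand, and the gene that follows it, Aasdh, fell too (log2 fold change -0.92, edgeR adjusted p = 0.030). The related 2010300C02Rik (Cracdl) was at 26.7 ± 0.462 and 23.4 ± 0.134 CPM; the libraries did not overlap, the log2 fold change was -0.20, and it did not pass (edgeR adjusted p = 0.40). With total-count scaling its value was 0.05.

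1700019D03Rik (smAKAP, a small anchor that holds protein kinase A at the plasma membrane) was at 2.01, 2.59 and 2.59 CPM in sgNeo and 0.147, 0 and 0.402 CPM in sgLkb1. These are 179 counts over the sgNeo libraries and 20 over the sgLkb1 libraries, 0 of them in sgLkb1 replicate 2. The gene entered the set through sgNeo alone, so its direction is partly set by the level rule. The log2 fold change was -3.70 (SE 0.98, edgeR adjusted p = 0.038). It did not pass without any 1 of the 3 sgNeo replicates or without sgLkb1 replicate 1 (edgeR adjusted p 0.084, 0.12, 0.10 and 0.089), and the value was -4.93 without sgLkb1 replicate 3 and -3.08 without sgLkb1 replicate 2. 4931406P16Rik (Garre1, an effector of the small GTPase Rac) averaged 25.3 ± 4.33 and 29.1 ± 5.01 CPM, without a call (edgeR adjusted p = 0.54).

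The members placed in the cilium and centrosome list did not pass in 5 of 5 cases. The list holds only members placed by name, and other members may act there too. 2700049A03Rik (Talpid3, needed for cilium formation) was at 13 ± 2.54 and 11.5 ± 3.20 CPM, and 4933427D14Rik (MNR, a protein of centriolar satellites) at 10.5 ± 3.21 and 9.51 ± 1.53 CPM. B230118H07Rik (Iftap, an intraflagellar transport associated protein) was at 7.39 ± 2.07 and 5.32 ± 0.816 CPM. D430042O09Rik (Kiaa0556, a protein of ciliary microtubules) was at 9.87, 9.52 and 11.8 CPM in sgNeo and 7.09, 7.19 and 6.23 CPM in sgLkb1, without overlap (log2 fold change -0.60, SE 0.23, edgeR adjusted p = 0.12). 1110017D15Rik (Cbe1, named for ciliated bronchial epithelium) was at 1.00, 1.09 and 0.438 CPM in sgNeo and 0.661, 0.918 and 3.33 CPM in sgLkb1. Its high library, sgLkb1 replicate 3, was also the one with the highest summed ciliated markers, 84.7 CPM against at most 59.5 in the others. Tppp3 alone gave 59.6 CPM of that sum, and a link between Cbe1 and ciliated cells was not tested. Without it the log2 fold change of Cbe1 was -0.11 in place of 0.95.

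The 2 members in the mitochondrial list and the 2 in the chromatin and transcription list did not pass either. 1810058I24Rik (Stmp1, a short transmembrane mitochondrial protein) was at 51.6 ± 9.07 and 48.1 ± 0.828 CPM, and 2310057M21Rik (PAAT, a protein associated with ABC transporters) at 14.5 ± 2.42 and 11.8 ± 1.21 CPM. 0610010K14Rik (Bap18, of chromatin complexes) was at 17.5 ± 1.56 and 16 ± 3.42 CPM, and 9130023H24Rik (GLI4, a zinc finger protein) at 13.5 ± 1.56 and 10.1 ± 1.06 CPM with no overlap (edgeR adjusted p = 0.21). 1600014C10Rik, at 17.9 ± 3.12 and 15.4 ± 2.08 CPM, and 9930021J03Rik, at 16.3 ± 2.87 and 21.6 ± 8.33 CPM, have no descriptive name in the tables and did not pass.

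3 members carry names from host defence or mucus, and they went different ways. 9530053A07Rik (FCGBP in the RefSeq synonyms, a mucus protein that binds the Fc part of IgG) was at 3.21, 1.50 and 1.87 CPM in sgNeo and 4.99, 7.24 and 6.86 CPM in sgLkb1. All sgLkb1 libraries were above all sgNeo libraries (log2 fold change 1.53, SE 0.39, edgeR adjusted p = 0.032). In the absence of sgNeo replicate 2 or 3 it did not pass, and likewise without sgLkb1 replicate 2 or 3 (edgeR adjusted p 0.12, 0.10, 0.088 and 0.072). The neighbouring Fcgbp gene, 8603 bases before it, went the other way, from 3.82 to 0.743 CPM (log2 fold change -2.35, edgeR adjusted p = 0.024). Reads of the related copies can be split between them by the counting, so both levels are uncertain.

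9530003J23Rik (Lyzf1, a lysozyme family gene) was at 1.40, 2.23 and 1.35 CPM in sgNeo and 0.343, 0.157 and 0.201 CPM in sgLkb1, without overlap (log2 fold change -2.80, SE 0.58, edgeR adjusted p = 0.016). Leaving out sgNeo replicate 2, or replicate 2 or 3 of sgLkb1, ended the call (edgeR adjusted p 0.086, 0.063 and 0.050). Like 1700019D03Rik, it entered the set through sgNeo alone, so its direction and the gap between the genotypes are partly set by the level rule. Lyz2, the flanking gene 38627 bases away, fell from 31000 to 2730 CPM (log2 fold change -3.50, edgeR adjusted p = 0.00083). Reads of lysozyme genes can be shared between close copies, so the level of 9530003J23Rik is uncertain, and the part of Lyz2 reads in it was not tested.

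F830016B08Rik (Ifgga4 in the RefSeq synonyms, of a family of interferon-inducible GTPases) had the widest spread of the members within a genotype. It was at 2.29, 72.6 and 184 CPM in sgNeo and at 16.2, 7.66 and 20.7 CPM in sgLkb1, so sgNeo replicate 1 lay below every sgLkb1 library and the other sgNeo replicates above them. The log2 fold change was -2.54 (SE 1.10) and did not pass (edgeR adjusted p = 0.16). Without sgNeo replicate 1 it was -3.12 and passed (edgeR adjusted p = 0.013), and with no filter on low counts it was -2.50 with an edgeR adjusted p of 1.6e-05. Over the other fits that left out a library the adjusted p reached 0.49.

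**Figure D4:**
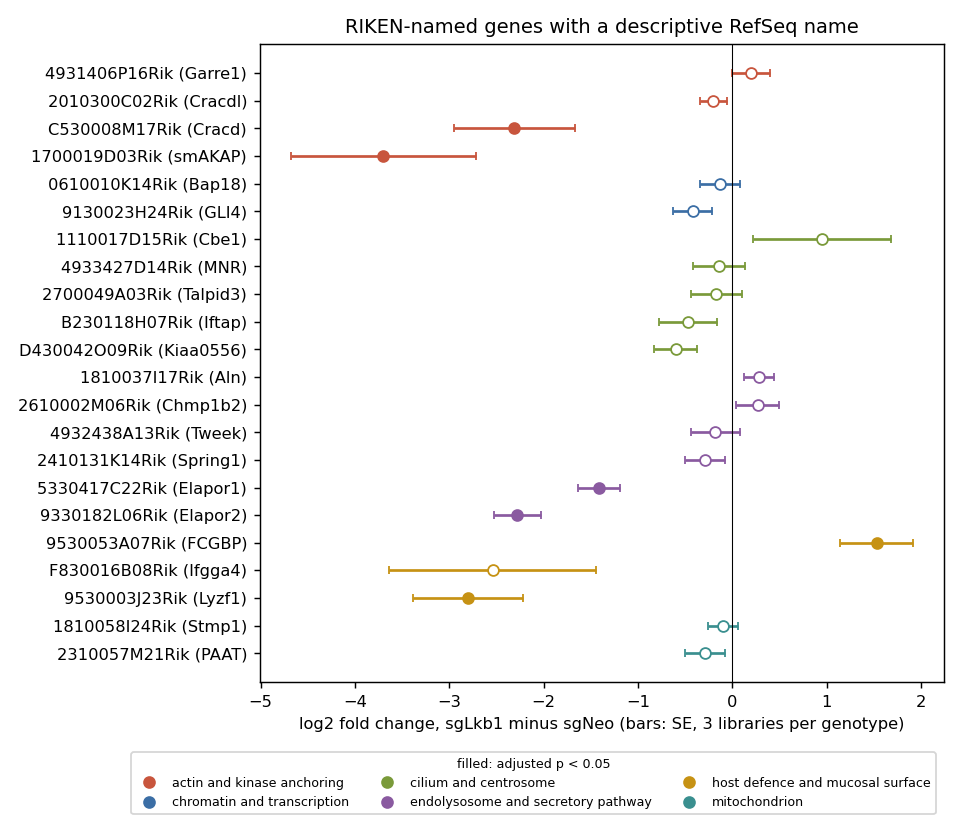
Points are the log2 fold changes (sgLkb1 minus sgNeo) of the 22 RIKEN-named genes with a descriptive RefSeq name and a role list, bars are standard errors from 3 libraries per genotype, and filled points passed (edgeR adjusted p under 0.05). Of the 22, 1 rose and 5 fell (27.3%, against 15.7% of all genes tested and 9.6% of members). Most of the 22 were placed in the lists with results known. Among those that fell, 1700019D03Rik and 9530003J23Rik had entered through sgNeo alone. No excess can therefore be read from these shares. F830016B08Rik and 1700019D03Rik have the widest bars.

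The remaining members that fell were not placed in a role list. 2510009E07Rik was at 111, 86.1 and 64.9 CPM in sgNeo and 35.3, 11.4 and 23.2 CPM in sgLkb1, which is -1.91 on the log2 scale (SE 0.39, edgeR adjusted p = 0.015), and was at an edgeR adjusted p of 0.052 without sgNeo replicate 1 or 2. D630039A03Rik was at 17.8, 13.7 and 15.3 CPM in sgNeo and 4.99, 5.80 and 5.77 CPM in sgLkb1, or -1.50 on the log2 scale (SE 0.22, edgeR adjusted p = 0.0040), and passed with any library left out. 2610301B20Rik was at 49.6, 36.5 and 37.3 CPM in sgNeo and 25.4, 17.8 and 14.8 CPM in sgLkb1, or -1.09 on that scale (SE 0.24, edgeR adjusted p = 0.019). Without replicate 1 or 2 of sgNeo, or replicate 2 of sgLkb1, it did not pass (edgeR adjusted p 0.075, 0.054 and 0.064). In all 3 genes the groups did not overlap.

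D230025D16Rik, one of the 5 members with the highest mean CPM, was at 158, 161 and 171 CPM in sgNeo and 101, 63.3 and 90.2 CPM in sgLkb1, a fall of all sgLkb1 libraries below all sgNeo libraries (log2 fold change -0.94, SE 0.19, edgeR adjusted p = 0.015). Leaving out sgNeo replicate 2 or 3 ended that call (edgeR adjusted p 0.060 and 0.051), and its exons overlap those of B3gnt9 on the other strand. The flanking gene Cbfb, which encodes a partner of the Runx factors, rose (log2 fold change 0.62, edgeR adjusted p = 0.039). C030006K11Rik, named here to complete the 12 after its values were seen, was at 13.7 ± 1.73 and 6.48 ± 1.15 CPM (log2 fold change -1.08, edgeR adjusted p = 0.020). Its exons overlap those of Lrrc24 on the same strand, and leaving out any sgNeo replicate, or replicate 2 of sgLkb1, ended the call (edgeR adjusted p 0.072, 0.054, 0.071 and 0.073).

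Of the 5 members that rose, 2200002J24Rik changed the most and was close to silent in sgNeo. It had 0, 1 and 2 counts in sgNeo replicates 1, 2 and 3 and 53, 75 and 67 counts in sgLkb1, which is 0, 0.0405 and 0.0797 CPM against 1.30, 1.97 and 1.92 CPM. The ratio of the summed counts, relative to scaled library sizes, was 42.7 (exact 95% interval 14.4 to 209, for counting error only), and edgeR gave a log2 fold change of 5.30 (SE 0.83, adjusted p = 0.0051). The call stood with any library left out (edgeR adjusted p up to 0.035), with values from 4.75 without sgNeo replicate 1 to 6.17 without sgNeo replicate 3. This gene (chr7:30698926-30700536, plus strand) entered the set through sgLkb1 alone. Its direction and the gap between the genotypes are therefore partly set by the level rule. Its neighbour Atp4a, the catalytic subunit of the gastric proton pump, 11672 bases after it, averaged 0.402 and 3.25 CPM, with no call (log2 fold change 3.00, edgeR adjusted p = 0.068).

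1700017B05Rik rose among the more abundant members. It was at 32.0, 34.6 and 35.5 CPM in sgNeo and 64.2, 88.7 and 106 CPM in sgLkb1, so the sgNeo libraries lay close together and all sgLkb1 libraries above them (log2 fold change 1.34, SE 0.20, edgeR adjusted p = 0.0041). It passed with any library left out (edgeR adjusted p up to 0.027). 2200002D01Rik, called IMUP among the RefSeq synonyms, was at 38.9, 34.3 and 54.6 CPM in sgNeo and 77.2, 84.0 and 79.6 CPM in sgLkb1, again without overlap; the log2 fold change was 0.91 (SE 0.19, edgeR adjusted p = 0.017). Its call was lost without replicate 1 or 2 of sgNeo and without replicate 2 of sgLkb1 (edgeR adjusted p 0.076, 0.079 and 0.050), and its exons overlap those of Yif1b on the other strand. The flanking gene Spint2, a serine protease inhibitor, was at 934 and 962 CPM.

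1700016C15Rik was at 0.682, 0.486 and 0.797 CPM in sgNeo and 3.11, 7.32 and 1.58 CPM in sgLkb1, highest in sgLkb1 replicate 2. It entered the set through sgLkb1 alone, so that its direction is partly set by the level rule. The log2 fold change was 2.60 (SE 0.63, edgeR adjusted p = 0.027). It dropped to 1.86 on leaving out sgLkb1 replicate 2. It passed neither there nor without any 1 of the sgNeo replicates (edgeR adjusted p 0.096, 0.085, 0.11 and 0.072), nor with the replicate number as a block (adjusted p = 0.053).

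**Figure D5:**
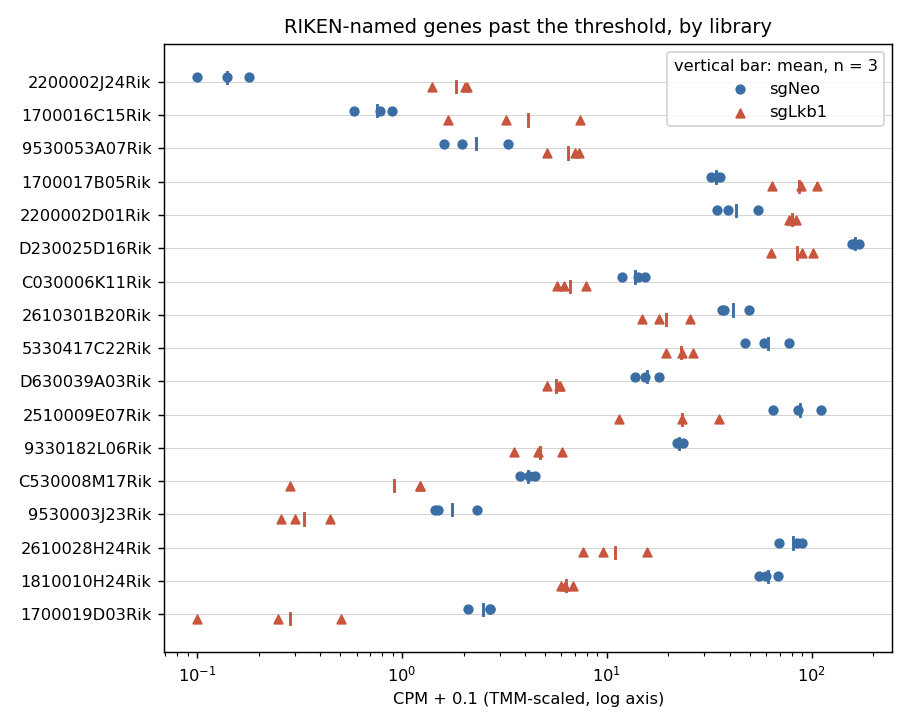
Each row is 1 of the 17 RIKEN-named genes that passed, with CPM + 0.1 on a log axis. Circles are sgNeo and triangles sgLkb1 libraries, and vertical bars are means of 3. In every row the triangles lie to one side of the circles, but the rows were picked by the test between the genotypes. For 1700019D03Rik, 9530003J23Rik, 1700016C15Rik and 2200002J24Rik the separation is also partly set by the level rule. Among all genes tested, all sgLkb1 libraries lay above all sgNeo libraries in 16.3% and below them in 20.3%.

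Of the 5 most abundant members, 1 fell and 4 did not pass. By CPM the first 5 were 9530068E07Rik (Kct2 in the RefSeq synonyms), 4833439L19Rik (P33monox), 1810013L24Rik, B230219D22Rik and D230025D16Rik. Per kilobase of exon 9530068E07Rik led with 68.2 RPKM over all libraries, ahead of 4833439L19Rik with 58.2 and 1810037I17Rik with 55.4 RPKM. 9530068E07Rik was at 207 ± 3.20 and 243 ± 34.6 CPM, and 4833439L19Rik at 197 ± 6.76 and 174 ± 16.8 CPM; in each the genotypes did not overlap, but neither passed (edgeR adjusted p = 0.36 and 0.45). 1810013L24Rik was at 130 ± 33.7 and 157 ± 66.6 CPM and B230219D22Rik at 134 ± 25.5 and 154 ± 26.0 CPM, with overlap and no call (edgeR adjusted p = 0.60 and 0.56). The sign of 4833439L19Rik turned with total-count scaling (log2 fold change 0.07 in place of -0.18), and that of 1810013L24Rik without sgLkb1 replicate 1 (-0.12 in place of 0.27).

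Across members the genotypes did not overlap in 18 cases with all sgLkb1 libraries above and 32 with all below (10.2% and 18.1% of members, against 16.3% and 20.3% of all genes tested). Counted in these are the 6 members that entered through 1 genotype, 4 above and 2 below, whose separation is partly set by the level rule. Within a genotype the median member ranged over 0.45 log2 units in sgNeo and 0.59 in sgLkb1, from its lowest to its highest library on a log2(CPM + 0.1) scale. More than 2-fold ranges were found in 22 members in sgNeo and 38 in sgLkb1. After F830016B08Rik, the widest sgNeo ranges were those of D630003M21Rik (0.160, 0.405 and 7.57 CPM) and 2210407C18Rik (0, 0.162 and 0.996 CPM), named here after their values were seen. 2210407C18Rik was at 2.13, 1.63 and 4.56 CPM in sgLkb1, above every sgNeo library, as its entry through sgLkb1 alone required in part, but did not pass (log2 fold change 2.83, SE 1.09, edgeR adjusted p = 0.12). It passed without sgNeo replicate 3 (log2 fold change 5.03, edgeR adjusted p = 0.038).

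Clone names with the prefix 1700 or a prefix from 4921 to 4933, which mark adult testis libraries, made up 36 of the 177 members (20.3%) and 178 of the 314 RIKEN-named protein-coding genes left out by the level rule (56.7%). Of the 17 members that passed, 3 had such a prefix.

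In the genome 174 members had a position in GENCODE M21 (GRCm38). The start site of another protein-coding gene on the opposite strand lay within 1000 bases in 37 (21.3%), against 15.8% of the other protein-coding genes past the level rule. Exons overlapped those of a gene on the other strand in 56 members (32.2%, against 31.1%), and without a stated strand setting the reads of such pairs cannot be told apart. A flanking protein-coding gene passed for 5 of 17 called members (29.4%) and for 45 of 157 members that were not called (28.7%), and it lay in the same direction for 3 (17.6%) and 25 (15.9%). In the 250 bases before the start, members had a median of 16 CG pairs, as did the other protein-coding genes past the level rule. At least 10 CG pairs were found in 6 of 15 called members (40.0%) and in 97 of 130 not called (74.6%). Among other protein-coding genes they were found in 62.6% of called and 76.0% of uncalled ones. These shares were not tested, and the windows of members and of other genes were chosen by unlike rules. The 4 called members that entered through 1 genotype are counted in the 40.0%. These were 2200002J24Rik, 1700016C15Rik, 9530003J23Rik and 1700019D03Rik, with 6, 5, 5 and 2 CG pairs, so that share rests partly on the level rule. For C530008M17Rik and 1700019D03Rik the RefSeq start lay 184087 and 27522 bases from the GENCODE start. Their windows, with 3 and 2 CG pairs, therefore belong to another start site but are counted as well.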

How the data were processed

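Bulk RNA sequencing libraries of sorted tumour cells were compared, 3 per genotype. The authors deposited expected counts per gene; STAR, RSEM, FastQC and DESeq2 and the build GRCm38 stand in the submitters' processing notes, while annotation release and strand setting were not given in the sources used here. The labels' protocols give collagenase and DNase digestion and Nextera XT libraries. With RSEM a read that fits several genes is shared among them.

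Counts were rounded to whole numbers, filtered with filterByExpr (15978 of 55487 genes left), scaled with TMM and tested with edgeR 4.0.16 (R 4.3.3, glmQLFit and glmQLFTest, two-sided, genotype as the only term), with Benjamini-Hochberg adjustment at 0.05 over all genes tested. The SE was taken as |log2 fold change| over the root of F. 3 counts are 0.119 to 0.121 CPM in an sgNeo library and 0.0734 to 0.0861 in an sgLkb1 library, and intervals cover counting error only, since no molecular identifiers were used here. RPKM divides CPM by the exon bases of GENCODE M21. RefSeq entries (GRCm38.p6) were found for 176 members by symbol or synonym, 64 of them with no other name. Names and roles were taken from these entries.

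Members, lists and tests were chosen with earlier results of these data known. Named genes were the 10 greatest rises and falls past the threshold, the 5 highest by mean CPM, the genes beside the level rule, the role lists and Stk11. Of 20 genes first listed by role 9 were not in the table as RIKEN-named protein-coding genes, 4 failed the level rule and 7 were members, so most of the 22 in the role lists were placed from their RefSeq names with results known, and 4933427D14Rik was moved to the cilium list after its RefSeq name was read. On simulated data over 15978 genes for this comparison, the test recovered 0% of the genes set to change 1.5-fold, 24% of those at 2-fold, 72% at 4-fold and 86% at 8-fold, and called 4 of 15778 unchanged genes. Far fewer genes changed there than passed in the data (15.7%). The adjustment was therefore not equally strict, and recovery in the data may be higher. The labels do not say that equal replicate numbers pair libraries. Correlations of same-numbered deviations were 0.135, -0.0214 and 0.115, and those of unlike numbers ran from -0.1738 to 0.0885. Values so close to each other cannot decide whether the libraries are paired. Alternatives were other scalings, filters and level rules, DESeq2 1.42.0, the replicate block and each library left out.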

Additional observations from a re-analysis of the deposited data

How the results depend on the processing

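The 17 calls among RIKEN-named genes were all made again with RLE and upper-quartile scaling, without a low-count filter, with a filter of CPM 1 in 3 libraries and DESeq2, and 16 of them with total counts only and with the replicate block. With total counts only, 9 members were higher and 11 lower, and over all genes 2191 higher and 896 lower against 1127 and 1374; this scaling puts the median log2 fold change of all genes at 0.26. With no filter on low counts 8 members were higher, and 1917 of 31803 genes tested, against 1127 of 15978 in the main fit. With DESeq2 9 members and 1819 of 15978 genes were higher. The level rule at 2 CPM left 158 members, 3 higher and 10 lower, and at 0.5 CPM 196 members, 5 higher and 12 lower. With the replicate block 6 members were higher and 12 lower, and over all genes 1336 and 1544. Whether the numbers pair samples is not known. With a library left out, members higher ran from 2 to 6 and members lower from 5 to 10 of 177. All genes higher ran from 447 to 1368 (2.67% to 8.19% of those tested) and all genes lower from 682 to 1412 (4.07% to 8.46%). The cause was not tested. Of 16 named members that passed, none changed sign in any setting. Members that did not pass changed sign as follows. With total counts only the log2 fold change was 0.11 for 4933427D14Rik, 0.13 for 0610010K14Rik, 0.07 for 4833439L19Rik, 0.05 for 2010300C02Rik, 2700049A03Rik and 4932438A13Rik, 0.03 for 1600014C10Rik and 0.14 for 1810058I24Rik. With a library left out it ran from -0.28 to 0.13 for 4933427D14Rik, -0.22 to 0.05 for 0610010K14Rik, -0.12 to 0.49 for 1810013L24Rik, -0.11 to 1.36 for 1110017D15Rik, -0.36 to 0.02 for 2700049A03Rik, -0.47 to 0.02 for 4932438A13Rik and -0.22 to 0.03 for 1810058I24Rik. Members under 3 CPM had a median SE of 0.58, against 0.195 at 30 CPM or more, and depth itself was not varied.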

Other observations

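RIKEN names are also carried by 2481 genes of other types in the table, which the comparisons above do not use. Of these, 247 met the same level rule, with 4 higher (1.62%) and 22 lower (8.91%) in sgLkb1 by the edgeR test, against 7.05% and 8.6% of all genes tested. Antisense genes made up 53 of the 247, with 0 higher and 8 lower (15.1%); long intergenic RNAs made up 56, with 1 higher and 2 lower; processed transcripts made up 69, with 2 higher and 10 lower (14.5%). These classes were chosen after their counts were seen, and no difference between them was tested. All 23 RIKEN-named bidirectional promoter RNAs past the level rule stayed short of the threshold.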
